A study of Mus musculus with 6 samples.

Results

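The 10 genes described here are Wnt ligands, receptors and effectors: the ligand genes Wnt3 and Wnt3a, the receptor genes Fzd2 and Fzd7, the co-receptor genes Lrp5 and Lrp6, and the effector genes Ctnnb1, Lef1, Tcf7 and Tcf7l2. They are 10 of 21853 protein-coding genes of GENCODE M21 on the 21 assembled mouse chromosomes (GRCm38). The list was chosen by hand from earlier results of these same data, in which Ctnnb1, Fzd2 and Fzd7 were already known to have a Tex10 interval at a promoter. The presence of intervals at these genes is therefore a description, and no test was made on it. The study profiled chromatin by ChIP-seq in mouse PGCLCs, cells made in culture to resemble primordial germ cells, of strain 129Sv/J, at day 2 and without treatment. One antibody (2 samples) bound an HA tag fused to the C-terminus of Tex10, another (2 samples) bound H3K4me3, the trimethyl mark on lysine 4 of histone H3, and 2 input samples had no antibody. All groups share the strain, the day and the lack of treatment. Nothing in the labels says whether the 2 samples of a group came from separate cultures, or how many clones of the tagged line were used.

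Each antibody has 1 deposited list of genomic intervals for both samples together, so no value below has a replicate error. The lists have no score, so an interval is described by its position and width alone. Sequencing depth is unknown, and the input samples have no file among those used. The HA-Tex10 list has 4238 intervals on the assembled chromosomes with a median width of 232 bp, and the H3K4me3 list has 29002 with a median width of 711 bp. As a check of the labelled cell type, an H3K4me3 interval lay at a promoter of 6 of 8 germ cell fate genes (Dppa3 and Nanos3 had none), 6 of 6 pluripotency genes and 5 of 6 early mesoderm genes. It lay at 0 of 11 genes of other cell types, such as Alb, and at 60.9% of all coding genes, so the germ cell count alone says little about the cell type. The mark shows which promoters carry H3K4me3, not the level of any RNA.

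Wnt proteins are secreted signals that bind a Frizzled receptor together with the co-receptors Lrp5 or Lrp6. Binding stops the destruction of beta-catenin, the product of Ctnnb1, which then enters the nucleus and acts on genes through TCF/LEF factors, the products of Lef1, Tcf7 and Tcf7l2. In the mouse embryo, Wnt3 is needed for the primitive streak and for the epiblast to respond to the signals that specify primordial germ cells. Tex10 is a nuclear protein of a complex that also works in ribosome assembly, and it is known from pluripotent stem cells. H3K4me3 marks the promoters of active genes and of many genes held ready for activity.

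An interval was counted at a transcription start site (TSS) if it came within 1 kb of any start of the gene's coding transcripts. The 10 genes had 4 HA-Tex10 intervals at a TSS, at Fzd2 (2), Fzd7 (1) and Ctnnb1 (1). The reference sequences of 3 of them are shown, because these are the places at these genes that the HA-Tex10 list holds. No HA sample from cells without the tag is among the samples, so binding of Tex10 itself at an interval was not tested. Positions are 1-based on GRCm38, and each sequence runs along the plus strand, which is the strand of these 3 genes. Capitals mark letters that match one of the motifs named below. Of the upstream Fzd2 interval the central 300 of 340 bases are shown.

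Fzd2 upstream interval, chr11:102603271-102603570: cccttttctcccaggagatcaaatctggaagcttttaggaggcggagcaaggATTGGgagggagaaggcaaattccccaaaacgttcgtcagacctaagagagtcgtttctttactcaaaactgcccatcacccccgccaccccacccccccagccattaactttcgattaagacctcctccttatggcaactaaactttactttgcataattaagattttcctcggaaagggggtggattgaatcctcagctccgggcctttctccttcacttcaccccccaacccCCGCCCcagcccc
Fzd7 interval, chr1:59481871-59482000: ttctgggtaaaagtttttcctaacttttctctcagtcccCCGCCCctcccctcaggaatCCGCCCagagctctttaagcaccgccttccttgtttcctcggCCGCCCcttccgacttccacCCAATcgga
Ctnnb1 interval, chr9:120934248-120934438: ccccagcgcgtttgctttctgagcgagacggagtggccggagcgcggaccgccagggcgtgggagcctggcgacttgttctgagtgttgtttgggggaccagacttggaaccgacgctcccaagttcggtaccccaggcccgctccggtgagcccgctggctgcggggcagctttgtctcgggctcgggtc

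These letters were searched on both strands for 9 short motifs: TCF/LEF (CTTTGAT and CTTTGTT), NRF1, the octamer ATGCAAAT, the E-box CACGTG, CREB (TGACGTCA), ETS (CCGGAAGT), NFY (CCAAT) and the SP GC box (GGGCGG). None of these 3 stretches held either TCF/LEF motif, the sequence that the effectors of this pathway bind. In windows of the same lengths centred on all 4238 HA-Tex10 intervals, CTTTGAT was present in 1.09% (130 bp) to 2.17% (300 bp) and CTTTGTT in 2.60% to 5.83%. Their absence says only that these letters are not in the 3 windows.

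Both Frizzled stretches held CCAAT and GGGCGG on one strand or the other, and the Ctnnb1 stretch held neither. The Fzd7 stretch of 130 bp had 3 copies of GGGCGG and 1 of CCAAT, and both motifs were present in 3.75% of HA-Tex10 windows of that length. The Fzd2 stretch had 1 copy of each, against 11.4% of windows of 300 bp with both. Taken singly, GGGCGG was in 22.6% and CCAAT in 15.8% of windows of 130 bp, and in 41.6% and 30.5% of those of 300 bp. The plan named single motifs only, so the pair is an added count. The windows cover the whole HA-Tex10 list and not only intervals near a TSS. These are matches of letters and not shown to be binding sites.

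The 3 stretches differed in base composition. GC content was 68.1% in the Ctnnb1 stretch, with 19 CpG dinucleotides in 191 bp. It was 56.2% in the Fzd7 stretch, and 52.0% in the Fzd2 stretch. Over all HA-Tex10 intervals the median GC content was 59.0% (interquartile range 50.8 to 64.8%), so the Ctnnb1 stretch lay above that range and the Frizzled stretches within it. Every 32-base word of the 4 intervals was unique in the assembled genome, whereas 39.7% of the HA-Tex10 list consisted mostly of repeated words.

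Among ligand genes, Wnt3 (chr11:103774150-103817957, plus strand) and Wnt3a (chr11:59248033-59290752, minus strand) differed. Wnt3 had H3K4me3 at its GENCODE TSS and Wnt3a did not, and neither had HA-Tex10 within 10 kb of the gene. RefSeq also lists a Wnt3 start further in, at 103810939, which was 36508 bp from the nearest H3K4me3. The Wnt3 mark was a single narrow interval of 602 bp, chr11:103773830-103774431, which began 320 bp before the TSS and ended 281 bp after it. Of the 13306 coding genes with H3K4me3 at a TSS, 11489 had a wider interval there. At Wnt3a the nearest H3K4me3 interval to the TSS lay 16.3 kb away, outside the gene. The 1 interval inside the gene, chr11:59264080-59264418, was 339 bp wide and lay in an intron 26334 bp downstream of the TSS. It met no TSS of any annotated gene within 1 kb. The nearest HA-Tex10 interval was 612 kb from the Wnt3 TSS and 336 kb from the Wnt3a TSS.

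The promoters of the ligand pair are shown because the pair differ in the mark. They come from RefSeq's table for GRCm38.p6, which matched 7 of the 10 genes by symbol, and only bases before the annotated exons are printed. Wnt3 is on the plus strand and Wnt3a on the minus strand, and each sequence runs along its gene. Capitals again mark motif matches.

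Wnt3 promoter, chr11:103773925-103774149: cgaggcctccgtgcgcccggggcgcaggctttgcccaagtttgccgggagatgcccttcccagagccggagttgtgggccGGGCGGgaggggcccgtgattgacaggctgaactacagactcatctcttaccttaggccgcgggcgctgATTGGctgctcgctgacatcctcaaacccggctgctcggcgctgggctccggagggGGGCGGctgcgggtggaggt
Wnt3a promoter, chr11:59290753-59291001, minus strand: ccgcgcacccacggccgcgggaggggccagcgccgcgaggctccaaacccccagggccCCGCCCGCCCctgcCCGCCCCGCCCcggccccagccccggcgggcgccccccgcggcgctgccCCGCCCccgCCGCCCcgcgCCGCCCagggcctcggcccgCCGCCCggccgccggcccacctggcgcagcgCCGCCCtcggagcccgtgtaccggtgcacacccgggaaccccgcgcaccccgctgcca

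The Wnt3a stretch of 249 bp had a GC content of 87.6%, 41 CpG dinucleotides and 9 copies of GGGCGG, some of them overlapping. The Wnt3 stretch of 225 bp had a GC content of 68.9%, 20 CpG dinucleotides, 2 copies of GGGCGG and 1 of CCAAT. The GC box was present in 32.6% of 32817 RefSeq promoters cut to 249 bp and in 29.2% of those cut to 225 bp. CCAAT was present in 31.6% of the promoters of 225 bp. Neither stretch held a TCF/LEF motif. In 1 kb around the TSS, GC content was 70.0% and the observed-to-expected CpG ratio 0.75 at Wnt3a. The medians were 60.1% and 0.74 over coding genes with H3K4me3 at a TSS, and 46.2% and 0.19 over those without. At Wnt3, GC content was 63.1% and the ratio 0.62, the lowest CpG ratio of the 10 genes. Among marked genes, the GC content at the unmarked Wnt3a promoter would lie at percentile 91.6 and its ratio at percentile 52.0, close to the median. At the marked Wnt3 promoter GC content was above that median as well (percentile 66.6), and the ratio was below it (percentile 24.6).

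**Figure D1:**
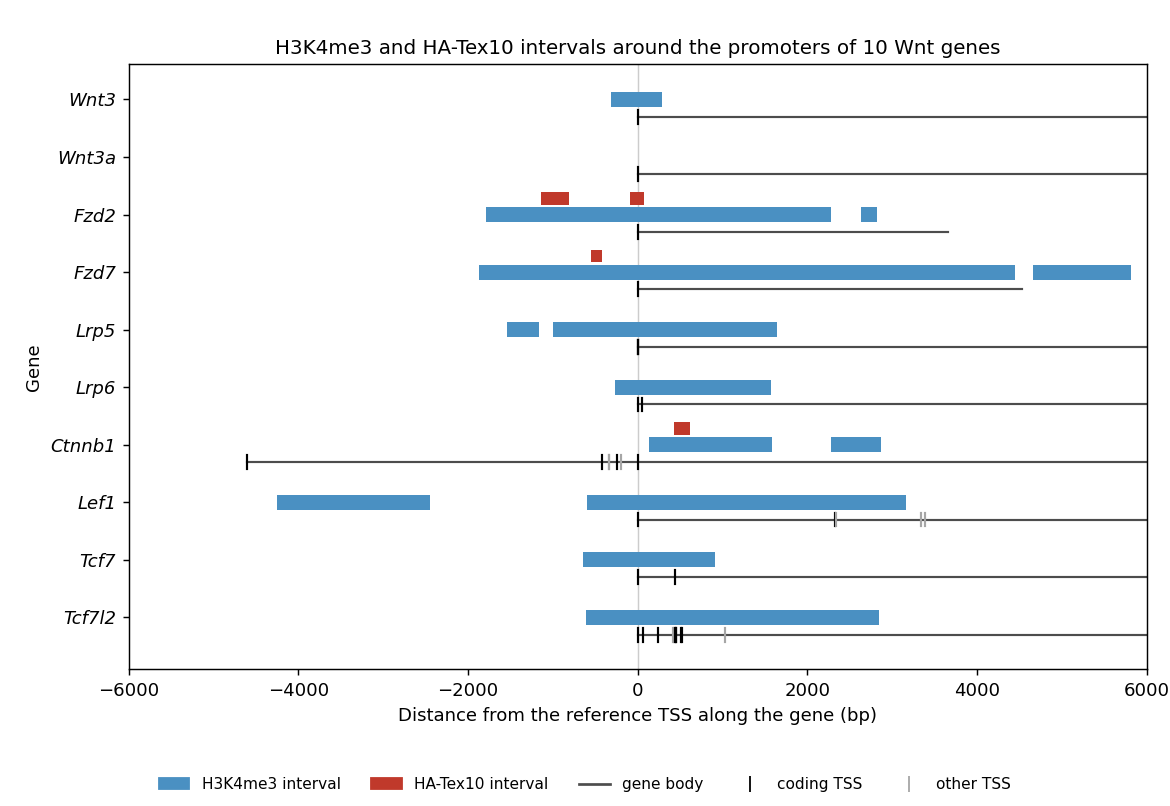
Intervals within 6 kb of the reference TSS of each of the 10 genes, drawn along the direction of transcription (x axis in bp from that TSS). The reference TSS is the coding TSS nearest to H3K4me3, or the 5'-most one; blue bars are H3K4me3 intervals, red bars HA-Tex10 intervals, black lines gene bodies and ticks annotated TSS. Fzd2, Fzd7 and Ctnnb1 carry the 4 HA-Tex10 intervals, and Wnt3a has no interval in the range shown.

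The receptor genes Fzd2 (chr11:102604396-102608058) and Fzd7 (chr1:59482424-59486955), each a single exon on the plus strand, had the widest H3K4me3 of the 10. At Fzd7 the interval chr1:59480548-59486872 was 6325 bp wide and ran from -1876 to 4448 bp relative to the TSS. It covered 98.2% of the 4.53 kb gene body, and a second interval of 1155 bp began 214 bp further on, past the end of the gene. Only 25 of the 13306 marked genes had a wider interval at a TSS. Coverage of at least 90% of the gene body was found at 1.27% of marked genes, and genes of 1 exon, as Fzd7 is, made up 3.07% of them.

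At Fzd2 the mark spanned 4071 bp, chr11:102602607-102606677, from -1789 to 2281 bp relative to the TSS, and 229 marked genes had a wider one. A further interval of 186 bp followed after 354 bp, in the untranslated part of the exon. Together they covered 67.4% of the 3.66 kb gene body. Among the 409 marked genes of 1 exon, 9.29% had H3K4me3 of 3 kb or more at a TSS, against 6.44% of all marked genes.

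HA-Tex10 lay inside these Frizzled domains, at or before the TSS. The Fzd7 interval was 130 bp wide and ended 424 bp before the GENCODE TSS. RefSeq places the start of Fzd7 at 59482147, which is 277 bp upstream, and from there the interval is 147 bp away. The upstream Fzd2 interval, chr11:102603251-102603590, was 340 bp wide and ended 806 bp before the TSS. The other was 156 bp wide and contained both the GENCODE and the RefSeq start. Fzd2 was the gene of the 10 with a pair of HA-Tex10 intervals. Among all coding genes 0.805% had 2 or more at a TSS, and among those with any HA-Tex10 there 9.30% did.

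The co-receptor genes Lrp5 (chr19:3584828-3686564) and Lrp6 (chr6:134446476-134566965), both on the minus strand, which encode single-pass membrane proteins, had H3K4me3 and no HA-Tex10. Lrp5 had an interval of 2640 bp, chr19:3684928-3687567, over both of its coding TSS, and 1382 marked genes had a wider one. An interval of 375 bp lay 164 bp further upstream, 1168 bp from the TSS and so just outside the 1 kb window. The last, of 2208 bp, lay beyond the 3' end of Lrp5 at the promoter of the neighbouring gene Ppp6r3. Lrp6 had 1 interval of 1846 bp, chr6:134565391-134567236, which spanned -271 to 1574 bp relative to the TSS. The nearest HA-Tex10 interval was 235 kb from the Lrp5 TSS and 263 kb from the Lrp6 TSS.

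Ctnnb1 (chr9:120929216-120960507, plus strand), which encodes beta-catenin, was the effector gene with HA-Tex10, and here the interval lay downstream of the TSS. It spanned chr9:120934248-120934438, was 191 bp wide and overlapped no annotated exon of Ctnnb1. It began 430 bp after the nearest coding TSS, 120933818. From the RefSeq starts at 120933400 and 120933578 it was 848 and 670 bp away. H3K4me3 at Ctnnb1 was 1447 bp wide, chr9:120933957-120935403, and began 139 bp downstream of that TSS, so that no annotated coding TSS lay inside it. The same was true of 14.1% of marked genes. A second H3K4me3 interval of 585 bp followed after 698 bp, also in the intron. Of the 6 coding TSS of Ctnnb1, 3 were within 1 kb of H3K4me3. The other 3 lay at -4602, 21639 and 22096 bp from the reference TSS, and the nearest H3K4me3 was 4741 to 19228 bp from them.

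The TCF/LEF genes had H3K4me3 at their first promoters and no HA-Tex10. Lef1 (chr3:131110471-131224356) and Tcf7l2 (chr19:55741820-55933654), both on the plus strand, had wide intervals. The Lef1 interval of 3758 bp, chr3:131109872-131113629, covered both of its coding TSS and lay within 1 kb of a TSS of the antisense gene Gm43352. A separate interval of 1804 bp lay 2446 bp upstream of Lef1. At Tcf7l2 the mark was 3462 bp wide, chr19:55741207-55744668, and a further interval of 153 bp lay in an intron 42810 bp downstream of the nearest coding TSS. At Tcf7 (chr11:52252371-52283014, minus strand) the interval was 1548 bp wide, chr11:52282107-52283654, and covered its 2 coding TSS. HA-Tex10 was nearest at Tcf7, 50.6 kb from its TSS, and lay 401 kb from that of Lef1 and 924 kb from that of Tcf7l2.

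Starts near the first promoter of the TCF/LEF genes were marked, and those further inside were not. Short forms of Lef1 and Tcf7 that lack the beta-catenin binding part are known to come from internal promoters. At Tcf7l2, 8 of 11 coding TSS were within 1 kb of H3K4me3, and the other 3, which lie 152714 to 156733 bp into the gene, were at least 109230 bp from any. At Lef1, the second coding TSS, 2326 bp into the gene, lay inside the mark, as did RefSeq starts at 131112227 and 131112791. A RefSeq start further in, at 131156294, was 42665 bp from the nearest H3K4me3. At Tcf7, the coding TSS 443 bp into the gene lay inside the mark and a RefSeq start at 52281763 was 344 bp from it, while those at 52279919 and 52276766 were 2188 and 5341 bp away. Over the 9275 marked genes with 2 or more coding TSS, every coding TSS was within 1 kb of H3K4me3 in 56.6%. By this count Lef1, Tcf7, Lrp5 and Lrp6 had all their coding TSS marked, and Ctnnb1 and Tcf7l2 did not.

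**Figure D2:**
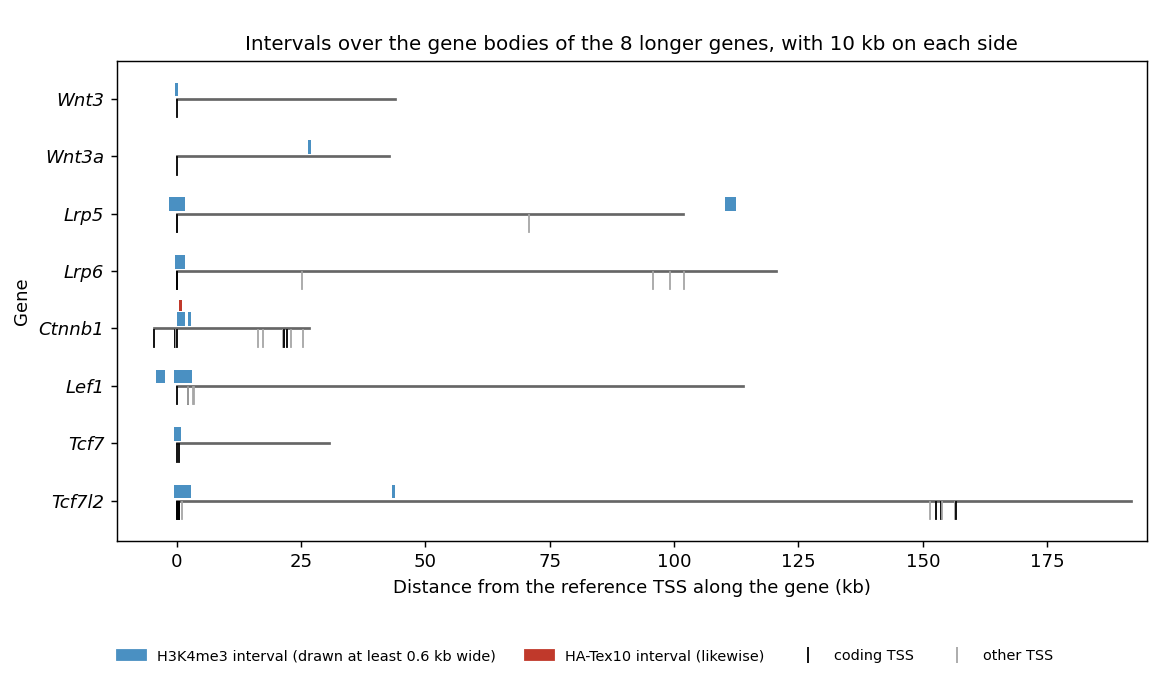
H3K4me3 (blue) and HA-Tex10 (red) intervals over the bodies of the 8 longer genes and 10 kb on each side, with the x axis in kb from the reference TSS along the gene and ticks at annotated TSS. Intervals under 0.6 kb are drawn 0.6 kb wide to be visible. Apart from Wnt3a, each gene has H3K4me3 within 1 kb of a coding TSS, though not at the first one of Ctnnb1. Further intervals lie inside Ctnnb1, Wnt3a and Tcf7l2, none at the far internal TSS of Tcf7l2, and 1 past the 3' end of Lrp5 at another gene's promoter.

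Counted over the 10 genes, 9 had H3K4me3 at a TSS, against 60.9% of all coding genes (95% Wilson interval 60.2 to 61.5%, for counting error only). HA-Tex10 was at a TSS of 3 (30.0%), against 8.66% of all coding genes (8.30 to 9.04%) and 13.9% of those with H3K4me3 at a TSS. The genes were chosen with earlier results of these data known, and the 3 with HA-Tex10 were fixed by that choice. Nothing is therefore read from either difference. In the gene body plus 10 kb on each side, 10 of 10 had H3K4me3 (70.7% of all coding genes) and the same 3 had HA-Tex10 (16.9%). The choice fixed these 3 here as well, so nothing is read from these differences either. The bodies of the long genes Tcf7l2 (192 kb), Lrp6 (120 kb) and Lef1 (114 kb) had no HA-Tex10. Whether the presence of an interval depends on gene length was not tested. There were 17 H3K4me3 intervals in these regions, 9 at a TSS of the gene and 8 away from it. The 8 belonged to 7 genes, and 44.0% of coding genes had such an interval.

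The share of marked genes with HA-Tex10 at a TSS differed between chromosomes. Of the marked genes, 8.93% had it on chromosome 1 (Fzd7), 12.5% on chromosome 9 (Ctnnb1) and 14.6% on chromosome 11 (Fzd2, Tcf7, Wnt3 and Wnt3a). The shares were 11.1% on chromosome 3 (Lef1), 9.49% on chromosome 6 (Lrp6) and 13.4% on chromosome 19 (Lrp5 and Tcf7l2). Fzd7 thus lies on the chromosome with the lowest of these 6 shares and Fzd2 on the one with the highest.

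The 4 HA-Tex10 intervals differed in where they lay relative to the TSS. One contained a TSS, 2 lay upstream and 1 downstream. Of all 1773 HA-Tex10 intervals within 1 kb of a coding TSS, 44.2% contained one, 31.0% lay upstream and 24.8% downstream. The gap to the TSS was 0, 424, 430 and 806 bp for the 4, while it exceeded 400 bp in 11.6% of the 1773 and 800 bp in 2.93%. The interval of the 10 genes nearest to the 1 kb limit from inside was thus the upstream one of Fzd2, at 806 bp. Among the 7 genes without HA-Tex10 at a TSS, the nearest interval was the one 50.6 kb from Tcf7.

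Each of the 4 lay inside an H3K4me3 interval and in its 5' part. Measured from the upstream edge of the mark along the gene, the centre was at 20% and 43.7% of its width for the 2 Fzd2 intervals, 21.9% for Fzd7 and 26.7% for Ctnnb1. Over the 1601 HA-Tex10 intervals that met H3K4me3 at a TSS, the median was 32.6% (interquartile range 16.9 to 53.4%), so all 4 fell within that range. In width, 3 of the 4 were below the median of the HA-Tex10 list (130, 156 and 191 bp against 232 bp) and the upstream Fzd2 interval was above it.

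Among the 9 marked genes, the widest H3K4me3 interval at a TSS ranged from 602 bp (Wnt3) through a median of 2640 bp (Lrp5) to 6325 bp (Fzd7), and the median over all marked genes was 1342 bp. In order, the widths were 602 bp at Wnt3, 1447 at Ctnnb1, 1548 at Tcf7, 1846 at Lrp6, 2640 at Lrp5, 3462 at Tcf7l2, 3758 at Lef1, 4071 at Fzd2 and 6325 at Fzd7. The genes with HA-Tex10 were the widest pair and one of the narrower ones, so the 2 groups overlapped. Of the 4 genes with an interval of 3 kb or more, Fzd2 and Fzd7 had HA-Tex10 and Lef1 and Tcf7l2 did not. HA-Tex10 was at a TSS of 27.3% of all 857 marked genes of 3 kb or more and of 13.0% of those under 3 kb. Among marked genes of 1 exon the share was 18.6%, and among the 38 of these with 3 kb or more it was 28.9%.

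**Figure D3:**
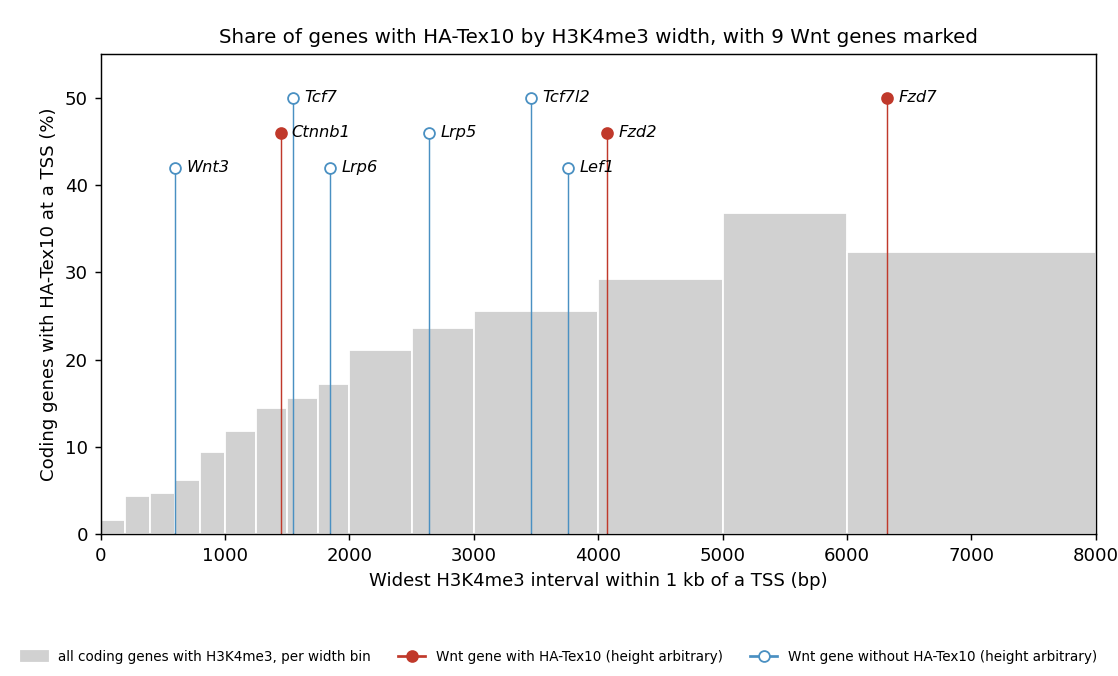
Grey bars give the percentage of coding genes with HA-Tex10 at a TSS in bins of the width of their H3K4me3 interval (x axis in bp, y axis in percent), without 4 genes over 8000 bp. Vertical lines mark the widths of the 9 Wnt genes, red with HA-Tex10 and blue without, at arbitrary heights. The share rises from 1.61% in the narrowest bin to 36.8% between 5000 and 6000 bp and is 32.3% in the bin of Fzd7, and 0 of the 4 genes not drawn had HA-Tex10. Lef1 and Tcf7l2 fall in a bin of 25.6% without having HA-Tex10.

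Base composition in 1 kb around the reference TSS also varied among the 10. GC content ranged from 54.7% at Tcf7l2 to 76.0% at Lrp6, and the observed-to-expected CpG ratio from 0.62 at Wnt3 to 1.05 at Ctnnb1 and Lrp6. The genes with HA-Tex10 had GC contents of 62.4% (Fzd2), 68.3% (Fzd7) and 73.4% (Ctnnb1), inside the range of the others. All coding genes with H3K4me3 and HA-Tex10 had a median GC content of 59.3% and a ratio of 0.75, close to the medians of all marked genes given above.

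Other genes of the pathway were read from a list of 46: ligands, ligand handling, agonists, receptors, signal transducers and effectors. Secreted Wnt inhibitors and the genes for beta-catenin destruction are not in the list and were not counted here. H3K4me3 was at a TSS of 42 of the 46 (91.3%, against 60.9% of all coding genes), and HA-Tex10 at 0 (against 8.66%, and 13.9% of marked genes). Ctnnb1, Fzd2 and Fzd7, already known to have HA-Tex10, are not among the 46, so the 0 is in part fixed by how the lists were drawn. The 4 unmarked genes were all ligands, Wnt1, Wnt8b, Wnt10b and Wnt16. With Wnt3a, 5 of the 19 Wnt genes were unmarked, and the marked ones had narrow intervals of 87 bp (Wnt5a) to 1322 bp (Wnt7b), with a median of 580 bp. Wnt3, at 602 bp, lay near the middle of its family. The HA-Tex10 interval closest to a ligand was at Wnt11, 1074 bp from a TSS and outside the window.

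All 10 Frizzled genes were marked, with a median width of 2699 bp. Fzd5 had the widest single interval of the family, 7300 bp, ahead of Fzd7 and Fzd2, and Fzd8 had 3345 bp. With neighbours within 1 kb merged, Fzd7 had 7694 bp, and the merged width of Fzd5 was not measured. Neither Fzd5 nor Fzd8 had HA-Tex10 at a TSS, and the nearest interval was 850997 bp from the Fzd5 TSS. The other single-exon Frizzled genes Fzd1, Fzd8, Fzd9 and Fzd10 had H3K4me3 over 37.2%, 49.4%, 45.4% and 49.9% of the gene body, and none had HA-Tex10. All 4 TCF/LEF genes were marked, Tcf7l1 with 1368 bp. Of the remaining receptors, Lgr4, which binds R-spondins, had a wide interval of 4659 bp. The transducers Dvl1, Dvl2 and Dvl3, which act between the receptor and beta-catenin, had 741 to 1466 bp. Beyond the TSS window, HA-Tex10 lay within the body plus 10 kb of 3 of the 46 genes, Wnt11, Ror2 and Dvl2, against 16.9% of all coding genes.

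**Figure D4:**
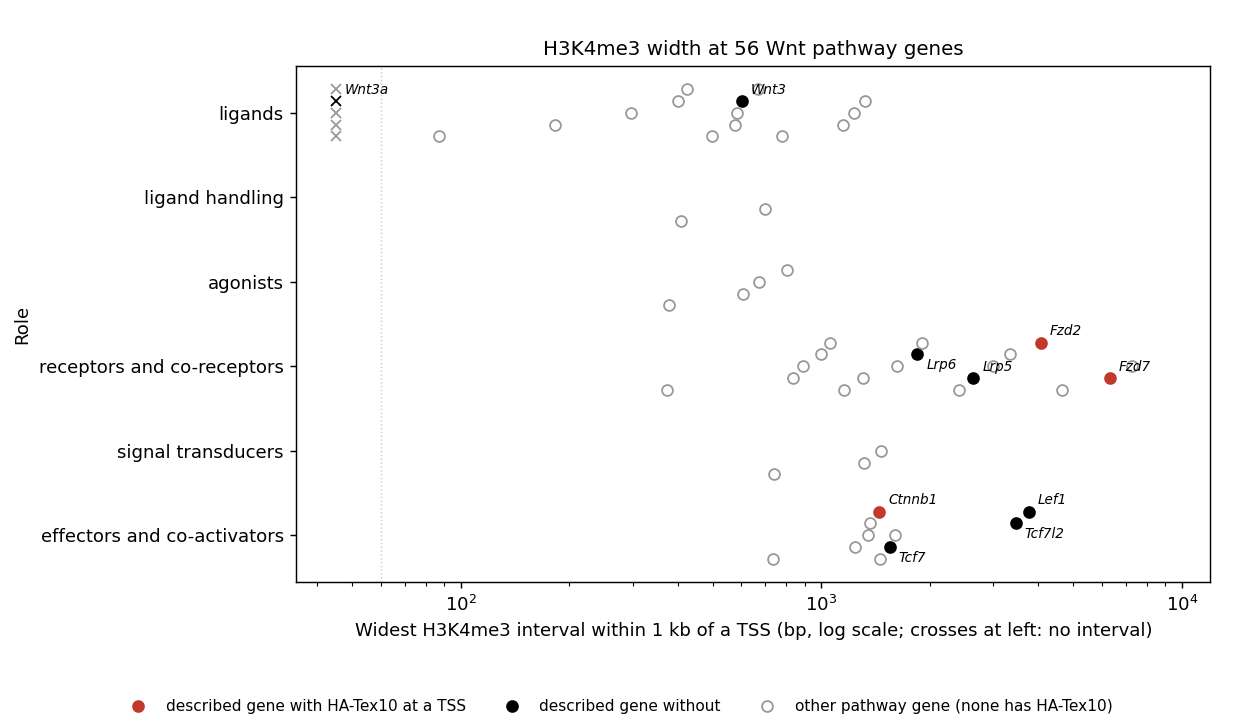
Width of the widest H3K4me3 interval at a TSS (x axis in bp, log scale) for 56 Wnt pathway genes by role, one point per gene, with crosses at the left for genes without an interval. Red points are Fzd2, Fzd7 and Ctnnb1, which have HA-Tex10 at a TSS, black points the other 7 described genes and open points the 46 further genes. Ligands lie at 1322 bp or below, and the Frizzled genes reach 7300 bp.

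The pathway genes most like those with HA-Tex10 were found by comparing coverage in bins of 100 bp within 2 kb of the TSS with the 55 others. Likeness was the Jaccard index, the share of covered bins that 2 genes have in common, averaged over both antibodies. Fzd2 and Fzd7 were most like each other, with an index of 0.97 for H3K4me3 and 0.00 for HA-Tex10, whose intervals fell in different bins. Fzd5 followed for both genes, with 0.92 and 0.90 for H3K4me3. For Ctnnb1 the most like gene was Ryk, a Wnt receptor, with 0.93 for H3K4me3. Ryk and Fzd5 have no HA-Tex10 at a TSS, so their index for it was 0.00 as well. The likeness in all these pairs thus rests on the mark alone. It covers only 2 kb on each side of the TSS, and the Fzd2 and Fzd7 intervals run beyond that.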

How the data were processed

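The authors deposited 3 interval lists in BED form, with start and end in bp and no score. Per the submitters' processing notes, Bowtie2 2.3.4.3, SAMtools 1.9, MACS2 2.1.2, HOMER and the build mm10 (GRCm38) were used, with no settings given, and 0 intervals ended past a GRCm38 chromosome. The sequence of 1 interval is not reported here. How the 2 replicates of an antibody were combined, and how the input was used, is not given in the sources used here. The third list equals the HA-Tex10 intervals that overlap H3K4me3 and served only as an alternative.

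Intervals were matched to coding TSS of GENCODE M21 with Python 3.11 and NumPy 2.4.6, with at least 1 bp inside the window, and 200 of 200 genes with a planted interval were recovered when tested on simulated data. Repeats were counted as 32-base words seen more than once, on either strand, and an interval was mostly repeated above 50%. No comparison of samples was possible with 1 list per antibody, so there is no p-value. The alternatives were other windows, transcripts, overlaps, flanks and list subsets.

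The 10 genes, the pathway list, the motifs and the marker lists were chosen with earlier results of these data known. Beyond the 10, genes of the pathway list were to be named where they had HA-Tex10 at a TSS, lacked H3K4me3 in a family with marked genes, or were most alike in coverage; Fzd1, Fzd8, Fzd9, Fzd10, Tcf7l1, Lgr4, Dvl1, Dvl2, Dvl3, Wnt5a, Wnt7b, Wnt11 and Ror2 were named after their values were seen.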

Additional observations from a re-analysis of the deposited data

How the results depend on the processing

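No paired analysis was possible because the lists are not split by replicate, and there was no replicate to leave out. Intervals have no depth or score: where none is listed, binding or mark was not detected, which does not show absence.

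Of 64 values under alternatives, 47 stayed within 1.5 times the main count, within its interval or equal to the main width, and 17 moved. The interval applies to the shares of coding genes and is the Wilson interval, for counting error only. Over 21853 genes it is narrow, so small changes of a share count as moved. HA-Tex10 intervals wider than their median left 1 of the 10 genes, Fzd2, at a TSS and in the body plus 10 kb. The other alternatives at a TSS kept Ctnnb1, Fzd2 and Fzd7. Several of these could not have lost them. The 2.5 kb window and the starts of all transcripts only add to the main setting. The third list and the list without mostly repeated intervals keep any interval that overlaps H3K4me3 and holds no repeated word, as theirs do. The body without flank held 2 genes and a flank of 25 kb held 4, with Tcf7 added. In the pathway list, a window of 2.5 kb gave 1 gene with HA-Tex10, and H3K4me3 intervals wider than their median gave 27 marked genes instead of 42.

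The share of coding genes with HA-Tex10 was 9.51% with a 2.5 kb window, 8.08% with 0.5 kb, 4.67% with wider intervals, 8.02% with the third list and 8.19% without mostly repeated intervals. For H3K4me3 it was 62.2% with a 2.5 kb window, 61.6% with all transcripts, 58.9% with 50% of the interval required inside the window and 49.8% with wider intervals. With neighbours within 1 kb merged, the width at the TSS was 2730 bp at Ctnnb1, 4611 bp at Fzd2, 7694 bp at Fzd7 and 3179 bp at Lrp5. That overlap rule kept 6 of 9 marked genes. It lost Fzd2, Fzd7 and Lef1, whose wide intervals had less than 50% of their width inside the window of any coding TSS.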
